A study of Saccharomyces cerevisiae with 28 samples.

Results

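The small nucleolar RNAs (snoRNAs) and the RNAs of the spliceosome were followed across 8 strains of Saccharomyces cerevisiae. The rows were chosen by name: all rows called snR with a number, and LSR1, which gave 82 of the 7125 rows of the table. They comprised 6 rows of spliceosomal RNAs, 47 box C/D and 29 box H/ACA snoRNAs. The mutant strains acs2-ts and pyk1 were each set against a wild type of their own, and the mutant strains sam1, ser33 and shm2 against BY4741. Acs2 is an acetyl-CoA synthetase, and a -ts strain carries a temperature-sensitive form of the protein. Sam1 makes S-adenosylmethionine, Ser33 and Shm2 act in serine and glycine metabolism, and Pyk1 is pyruvate kinase. All cells were grown in YPD, a rich medium with glucose. The labels give neither the growth temperature nor the allele of pyk1. Each strain had 2 cultures, and each culture 2 libraries from the same RNA, except in pyk1 and its wild type with 1 library each. Total RNA was depleted of ribosomal RNA before stranded sequencing, so RNAs without a poly(A) tail were retained.

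Box C/D snoRNAs pair with ribosomal RNA and direct methylation of a ribose at the paired base. Box H/ACA snoRNAs direct the change of a uridine into pseudouridine. A few snoRNAs are needed to cut the ribosomal precursor, among them U3 (snR17a and snR17b), U14 (snR128), snR30 and snR10. The spliceosomal RNAs U1 (snR19), U2 (LSR1), U4 (snR14), U5 (snR7-L and snR7-S) and U6 (snR6) remove introns from precursor mRNAs. In yeast most snoRNAs are transcribed from a gene of their own, some from a common precursor that is cut into several, and a few from the intron of a protein-coding host gene.

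The sequences below show how the classes are built, and most belong to members on which the later results turn. They were read from the R64 genome of RefSeq (the sacCer3 build) and are given 5′ to 3′ as DNA letters. Capitals mark box C (TGATGA) and box D (CTGA) in the box C/D snoRNAs, except that snR4 has only box D marked. They also mark the ACA box in the box H/ACA snoRNA, and the ACAGAGA stretch of U6 that pairs with the 5′ splice site. snR71, snR66 and snR54 fell most in acs2-ts. snR87 was the member with the largest rise in sam1. snR78 and snR75 come from the cluster of 7 on chromosome XIII whose median stood near 0 in acs2-ts. U14 (snR128), snR4, a guide of rRNA acetylation, snR11, a pseudouridine guide of the large subunit, and U6 are shown as examples of their classes.
snR71 (chrVIII:411228-411317, plus strand): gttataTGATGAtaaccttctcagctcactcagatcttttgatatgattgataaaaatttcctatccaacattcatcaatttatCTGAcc
snR66 (chrXIV:586090-586175, plus strand): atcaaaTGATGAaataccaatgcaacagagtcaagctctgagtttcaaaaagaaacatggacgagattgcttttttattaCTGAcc
snR54 (chrXIII:163535-163620, minus strand): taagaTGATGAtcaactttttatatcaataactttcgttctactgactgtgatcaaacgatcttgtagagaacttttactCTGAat
snR87 (chrXI:431030-431138, minus strand): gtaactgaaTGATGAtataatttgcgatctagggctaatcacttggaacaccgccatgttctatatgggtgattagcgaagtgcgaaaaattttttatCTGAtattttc
snR78 (chrXIII:297278-297364, plus strand): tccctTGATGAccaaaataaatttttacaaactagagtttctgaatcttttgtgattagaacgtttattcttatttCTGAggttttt
snR75 (chrXIII:297918-298006, plus strand): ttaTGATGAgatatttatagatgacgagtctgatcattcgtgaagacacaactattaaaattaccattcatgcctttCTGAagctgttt
snR128 (chrX:139566-139691, minus strand): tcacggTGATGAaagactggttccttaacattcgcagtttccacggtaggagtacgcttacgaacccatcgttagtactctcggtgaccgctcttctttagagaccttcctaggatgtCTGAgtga
snR4 (chrV:424698-424883, plus strand): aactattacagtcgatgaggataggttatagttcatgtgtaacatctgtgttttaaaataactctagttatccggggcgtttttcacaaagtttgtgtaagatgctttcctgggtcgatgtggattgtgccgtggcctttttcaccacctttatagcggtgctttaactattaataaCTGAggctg
snR11 (chrXIII:652275-652532, plus strand): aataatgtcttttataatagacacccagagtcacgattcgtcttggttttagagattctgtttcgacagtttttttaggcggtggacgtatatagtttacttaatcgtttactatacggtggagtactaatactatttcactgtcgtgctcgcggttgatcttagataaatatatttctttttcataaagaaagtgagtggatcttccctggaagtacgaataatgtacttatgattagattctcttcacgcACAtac
snR6 (chrXII:366235-366346, plus strand): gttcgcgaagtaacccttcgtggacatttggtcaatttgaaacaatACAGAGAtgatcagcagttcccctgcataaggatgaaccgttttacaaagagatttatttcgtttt

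The classes come from the annotation, and the boxes followed them. On the RNA strand, TGATGA lay within the first 25 nt and CTGA within the last 25 nt in 36 of 47 box C/D members, against 0 of 29 box H/ACA members. CTGA alone was found in the last 25 nt of 45 box C/D members and of 2 box H/ACA members. An ACA lay within the last 10 nt in 18 of 29 box H/ACA members (62.1%) and in 7 of 47 box C/D members (14.9%). Members without a match have other letters in these windows of the annotated gene, and nothing was drawn from that. By position, 8 members lay in the intron of a host gene, 17 had another member within 1000 bp on the same strand, not counting the overlapping pair snR7-L and snR7-S, and 57, with that pair among them, were treated as single. snR7-S lies within snR7-L: the RPKM of snR7-S over that of snR7-L was 1.193 to 1.195 in the 28 libraries, and the ratio of their lengths is 1.196. The same reads were therefore counted for both, and they are 1 measurement. snR60, snR17a and snR10 overlap another annotated gene on the same strand, so reads could be shared there as well.

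Depth, as implied by the steps between low values, was between 4.33 and 36.52 M reads per library, with a median of 14.82 M reads. SAM1, SER33 and SHM2 had 0.152 to 0.352 RPKM (reads per kilobase, scaled to library size) in the strain named for each, against 28.9 to 317 RPKM in BY4741. ACS2 had 557 and 505 RPKM in acs2-ts, against 247 and 219 RPKM in its wild type, and CDC19, the gene of Pyk1, had 3896 and 4147 RPKM in pyk1, against 4073 and 3162 RPKM in its wild type. The 82 members held 7.99% to 14.8% of RPKM times length in a library, and the mRNAs, 5988 nuclear protein-coding rows, held 62.0% to 81.8%.

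The members covered a 9870-fold range of level, and the level went with the length of the RNA. Values of RPKM are already divided by length. Over the 82 members the rank correlation between length and the mean level of the 8 strains was 0.78, a description of genes that share the same libraries. The 40 members under 130 nt had a median of 70.3 RPKM, the 32 members of 130 to under 300 nt had 660 RPKM, and the 10 members of 300 nt or more had 11910 RPKM. These length groups were set after the values were seen. The first group holds 39 of the 47 box C/D members and U6. The class medians were 79.3 RPKM for box C/D, 843 RPKM for box H/ACA and 4106 RPKM for the spliceosomal RNAs. These are levels in the libraries, and how the preparation treats RNAs near 100 nt was not tested.

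**Figure D1:**
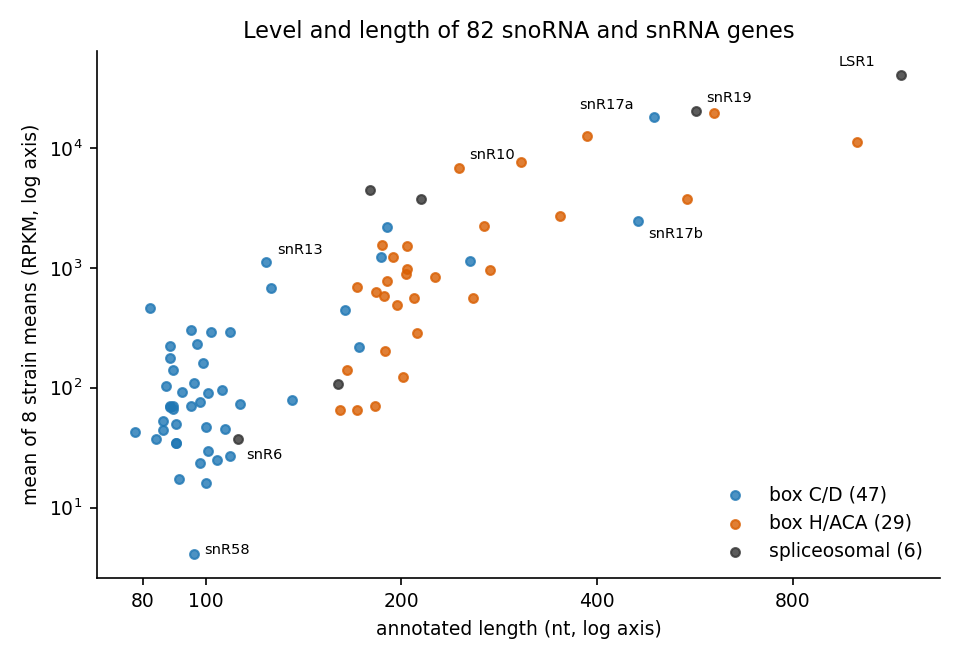
Each point is 1 of 82 genes, with its annotated length in nt (x, log axis) against the mean of the 8 strain means in RPKM (y, log axis), coloured by class. Members under 130 nt lie mostly below 300 RPKM, and 6 members, the shortest 386 nt long, have 11180 RPKM or more.

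The spliceosomal RNAs spanned a wide range. LSR1 (U2, 1175 nt) was the highest of all members, with a mean of 40680 RPKM, and snR19 (U1, 568 nt) was next with 20390 RPKM. snR7-L (U5) had a mean of 3742 RPKM, snR14 (U4, 160 nt) 108 RPKM and snR6 (U6, 112 nt) 37.7 RPKM. U4 and U6 pair with each other in the spliceosome, and both stood far below U1, U2 and U5 here. snR30 (19500 RPKM) and snR17a (18110 RPKM), both needed for cutting the ribosomal precursor, came next, and snR10 had a mean of 6813 RPKM. snR17b, the second gene of U3, had 2442 RPKM, and near-identical parts of snR17a and snR17b could share reads. At the low end, snR58 had a mean of 4.12 RPKM, snR65 of 16.1 RPKM and snR53 of 17.3 RPKM. snR58 rested on a median of 4 implied reads per library, with 0 in at least 1 library, so its differences are read with that depth in mind.

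In acs2-ts, the members as a group stood near their wild-type level while the typical mRNA fell. The median log2 fold change of the 82 members was -0.07 and that of the 5988 mRNAs was -1.38, a difference of 1.31 (2.48-fold), and 77 of 82 members lay above the median of the mRNAs. By limma with Benjamini-Hochberg adjustment over all rows, 11 members rose and 28 fell at an adjusted p under 0.05, while 43 were not called. Among all 7125 rows, 5.7% rose and 78.1% fell. The share of RPKM times length held by the members was 11.2% to 14.8% in the 4 acs2-ts libraries, against 9.7% to 14.7% in the 4 libraries of its wild type, and the shares overlapped. The share of the mRNAs was 63.7% to 71.0% in acs2-ts and 62.0% to 76.2% in its wild type. The shares overlapped here as well. The 289 mRNAs called higher, a set picked on these libraries, held 63.1% to 67.8% of the mRNA signal in acs2-ts, against 28.5% to 34.2% in its wild type. RPKM compares shares of a library, and RNA per cell was not measured.

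The calls in acs2-ts depend on what the values are set against. When the libraries were scaled by the median of ratios, which places the typical gene at no change, 65 members rose and 2 fell, with a median of 1.38 against -0.05 for the mRNAs, and 1892 of all rows rose and 1787 fell. The 2 that fell were snR71 (-1.51) and snR66 (-0.73). Of the other members that fell in RPKM as deposited, 13 were called higher with this scaling and 13 were not called. Such scaling moves all genes of a library by 1 factor, so the gap between members and mRNAs is nearly the same on either scale by construction. With the first library of each culture alone, 6 members rose and 26 fell. Leaving out any 1 culture, which leaves 1 culture in that strain, also lowered both counts compared with all cultures. The counts of all rows in these fits are not given here.

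Most of the falls were in box C/D snoRNAs: 25 of 47 box C/D members fell and 7 rose, against 2 and 4 of 29 box H/ACA members and 1 and 0 of 6 spliceosomal RNAs. These shares of falls lie below the 78.1% of all rows in each class. The median log2 fold change was -0.50 for box C/D, 0.05 for box H/ACA and -0.04 for the spliceosomal RNAs. Of the 40 members under 130 nt, 24 fell and 4 rose. Of the 32 members of 130 to under 300 nt, 4 fell and 4 rose, and of the 10 longer members 0 fell and 3 rose. All 28 members that fell and all 11 that rose had both acs2-ts cultures beyond both wild-type cultures, as did all 5565 rows called lower and 405 of the 406 rows called higher (99.8%). Whether called or not, 82.1% of all rows had both acs2-ts cultures below both wild-type cultures, and 7.64% had them above. The 8 box C/D members of 130 nt or more had a median of 0.26, with 3 rises and 1 fall. No test of the difference between classes or lengths was run.

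snR71, which guides methylation of the large subunit rRNA, fell most. It had 10.7 and 6.73 RPKM in the acs2-ts cultures, against 66.7 and 67.0 RPKM in the wild-type cultures (log2 fold change -2.89 ± 0.18, SE, limma adjusted p = 0.000126). snR66, another guide of the large subunit, had 12.3 and 13.3 RPKM in acs2-ts, against 57.5 and 61.6 RPKM in its wild type, with a log2 fold change of -2.14 ± 0.12. Both acs2-ts cultures lay far below both wild-type cultures for either RNA, and the rule for naming them required no overlap. Both RNAs fell by more than the typical mRNA. Over all libraries, the lowest implied count was 6 reads for snR71 and 12 reads for snR66. snR54, a guide of the small subunit within the intron of IMD4, had 14.0 and 18.8 RPKM in acs2-ts, against 53.1 and 68.4 RPKM in its wild type, with a log2 fold change of -1.88 ± 0.18 (limma adjusted p = 0.000219). snR87 followed with -1.62 ± 0.18, with 12.2 and 14.5 RPKM in acs2-ts, against 36.8 and 49.6 RPKM in its wild type. Under median-of-ratios scaling, snR54 and snR87 were no longer called, with values of -0.47 and -0.21.

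A cluster on chromosome XIII held no member that fell. Its 7 members, snR78, snR77, snR76, snR75, snR74, snR73 and snR72, are 87 to 109 nt long and lie in a row on the plus strand, and they are known to be cut from 1 common precursor. Their median log2 fold change was 0.20, with a range of -0.04 to 0.40: 2 rose, 0 fell and 5 were not called. The 32 other box C/D members under 130 nt had a median of -0.81, with 24 falls and 2 rises, close to the shares of all rows (78.1% fell and 5.7% rose). The cluster was singled out after its values were seen, and the difference was not tested. snR75 had 113 and 120 RPKM in acs2-ts, against 90.4 and 87.3 RPKM in its wild type (0.40 ± 0.11, limma adjusted p = 0.0133). snR74 had 113 and 141 RPKM in acs2-ts, against 96.0 and 99.2 RPKM in its wild type (0.36 ± 0.13, limma adjusted p = 0.0458). snR78, at the 5′ end of the cluster, had 114 and 133 RPKM in acs2-ts, against 133 and 119.5 RPKM in its wild type, and these values overlapped. The other clusters varied. On chromosome X, U14 (snR128) rose (0.41) and snR190 was not called (0.23). On chromosome XVI, snR70 (0.49) and snR41 (0.26) rose and snR51 fell (-0.50). On chromosome XII, snR61 (-1.11), snR55 (-0.80) and snR57 (-0.90) fell, and on chromosome V snR67 fell (-1.15) and snR53 was not called (0.06).

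**Figure D2:**
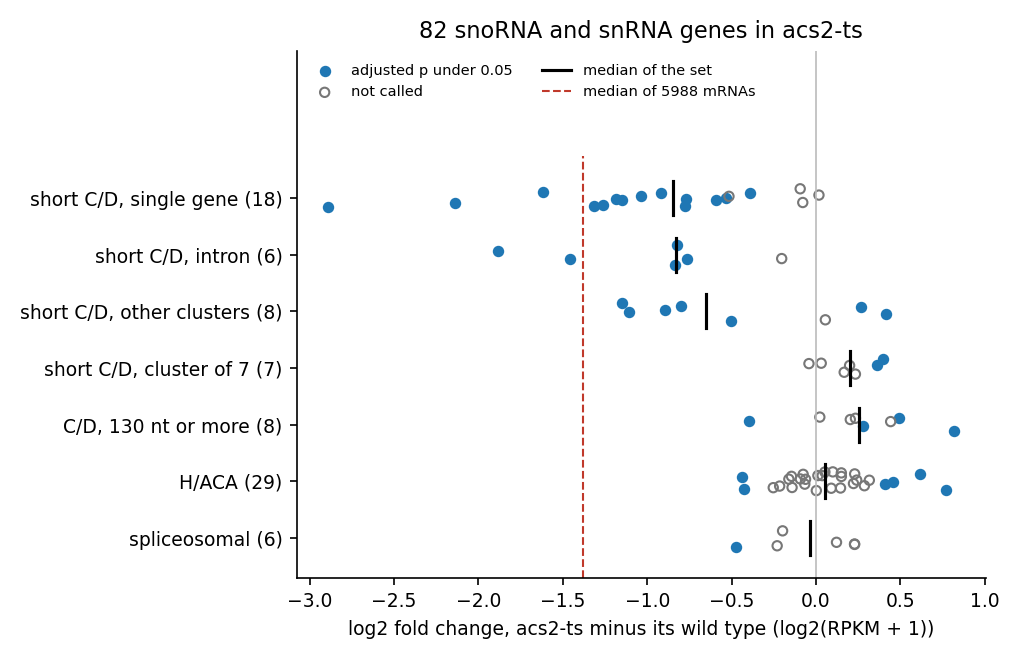
Each point is 1 of 82 genes, with its log2 fold change in acs2-ts over its wild type (x) by class, length and gene arrangement (rows; short means under 130 nt). Filled points passed an adjusted p of 0.05, black bars are medians, and the dashed line is the median of 5988 mRNAs at -1.38. The cluster of 7 has its median at 0.20, and single short box C/D genes have theirs at -0.85.

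The 8 intron members and their hosts gave mixed values in acs2-ts. Of the 8, 5 fell, 0 rose and 3 were not called, while 78.1% of all rows fell and 5.7% rose. snR54 fell by 1.88 and its host IMD4 by 1.96 on the log2 scale, and snR24 fell by 1.46 and its host ASC1 by 1.75. For snR39 in RPL7A the values were -0.83 and -1.27, for snR38 in TEF4 -0.83 and -1.33, and for snR59 in RPL7B -0.77 and -1.37, so these 3 snoRNAs fell by less than their hosts. snR18 had -0.20 and its host EFB1 -0.19, neither of them called. The 2 box H/ACA members in introns stood apart from their hosts: snR44 had -0.14 while RPS22B fell by 1.46, and snR191 had 0.09 while NOG2 fell by 0.78. The difference between a snoRNA and its host was not tested.

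The largest rises were in longer RNAs. snR17b (U3) had 5038 and 5546 RPKM in acs2-ts, against 3368 and 2669 RPKM in its wild type (log2 fold change 0.82 ± 0.17, limma adjusted p = 0.00438). snR82, a box H/ACA guide of the large subunit, had 2827 and 2774 RPKM in acs2-ts, against 1985 and 1376 RPKM in its wild type (0.77 ± 0.19, limma adjusted p = 0.0112). snR42, also a guide of the large subunit, had 3423 and 4565 RPKM in acs2-ts, against 2484 and 2631 RPKM in its wild type (0.62 ± 0.18, limma adjusted p = 0.0184). The acs2-ts cultures lay above both wild-type cultures in each, as the rule for naming them required. With the second libraries alone the call of snR82 was lost (0.75), and with the first alone that of snR42 (0.45).

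**Figure D3:**
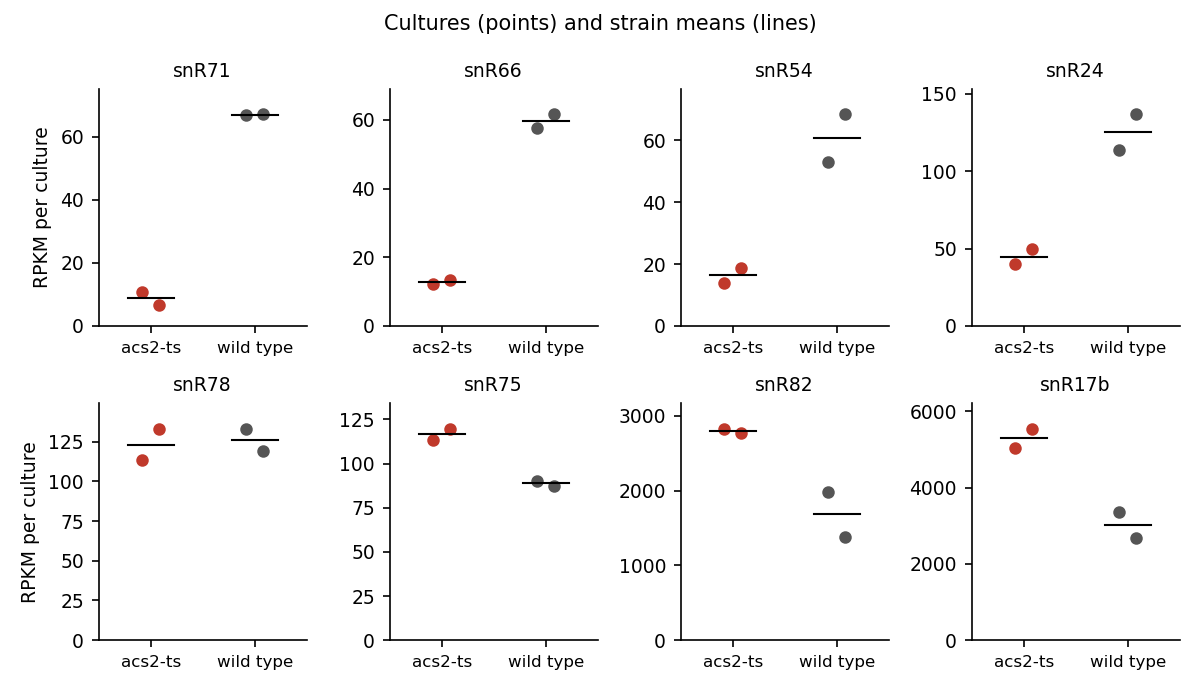
Points are the 2 cultures of acs2-ts (red) and of its wild type (grey), lines are strain means, in RPKM (y, from 0) for 8 members. snR71 has 10.7 and 6.73 RPKM in acs2-ts, below 66.7 and 67.0 RPKM in its wild type, while snR17b has 5038 and 5546 RPKM, above 3368 and 2669 RPKM.

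Of the other RNAs of rRNA processing, U14 (snR128) rose: it had 815 and 743 RPKM in acs2-ts, against 618 and 558 RPKM in its wild type (0.41 ± 0.11, limma adjusted p = 0.0151). snR17a had 22920 and 25180 RPKM in acs2-ts, against 17190 and 18350 RPKM in its wild type, which did not pass the test (adjusted p = 0.0712). snR30 (0.29 ± 0.23) and snR10 (0.00 ± 0.14) were not called. Of the guides of rRNA acetylation, which direct the enzyme Kre33 to cytidines of the small subunit, snR4 rose to 1165 and 1207 RPKM in acs2-ts, against 953 and 998 RPKM in its wild type (0.28 ± 0.11, limma adjusted p = 0.0488). snR45 had 207 and 254 RPKM in acs2-ts, against 187 and 210 RPKM in its wild type, and these values overlapped (adjusted p = 0.258).

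Among the spliceosomal RNAs, only U4 was called in acs2-ts: snR14 had 80.9 and 96.1 RPKM in acs2-ts, against 125 and 121 RPKM in its wild type (-0.47 ± 0.12, limma adjusted p = 0.0113). U2 (LSR1) had 37550 and 43340 RPKM in acs2-ts, against 39830 and 54290 RPKM in its wild type, and the cultures overlapped. U1 (snR19, 0.12 ± 0.18), U5 (snR7-L, 0.23 ± 0.18) and U6 (snR6, -0.23 ± 0.11) were not called either. Under median-of-ratios scaling the sign of snR14 turned to 0.98.

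The mRNAs of proteins that bind or mature these RNAs were lower in acs2-ts. All 41 mRNAs of the 5 protein lists fell. The box C/D proteins NOP1, NOP56, NOP58 and SNU13 fell by a median of 1.41, with SNU13, which also binds U4, at -0.33, and the box H/ACA proteins CBF5, GAR1, NHP2 and NOP10 fell by a median of 1.76. CBF5, the pseudouridine synthase, had 43.2 and 40.2 RPKM in acs2-ts, against 125 and 110 RPKM in its wild type. The assembly factors fell by a median of 1.85, the factors of 3′ end formation, capping and trimming by 1.52, and the Sm and Lsm proteins by 1.97. LSM2, a subunit of the ring on the U6 3′ end, had the lowest value of the lists at -2.88. Of the 5988 mRNAs, 5213 fell, with a median log2 fold change of -1.38, and of all rows 78.1% fell. The lists were not tested against either. Of 4 other stable noncoding RNAs, RPR1, the RNA of RNase P, rose (0.65 ± 0.16, limma adjusted p = 0.0092), while SCR1 of the signal recognition particle (0.22), NME1 of RNase MRP (0.31) and the telomerase RNA TLC1 (-0.06) were not called.

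In sam1, the medians of short and longer members had opposite signs. By limma, 7 members rose and 5 fell, against 8.0% of all rows that rose and 8.29% that fell. The median log2 fold change was 0.85 for box C/D, -0.36 for box H/ACA and 0.40 for the spliceosomal RNAs, and that of the mRNAs was -0.02. The 40 members under 130 nt had a median of 0.99, the 32 of 130 to under 300 nt -0.32 and the 10 longer ones -0.43. The 7 that rose were box C/D snoRNAs of 88 to 136 nt, and the 5 that fell were 126 to 462 nt long. BY4741 is the control of sam1, ser33 and shm2 alike, so these comparisons share its cultures.

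The counts in sam1 changed when a culture was left out, which leaves 1 culture in that strain. Calls can then be lost through fewer samples alone, so such counts do not show which culture a call rested on. Across these fits the count of rises moved both up and down, and the count of falls went down. The counts of all rows in these fits are not given here. With sam1 and BY4741 alone in the model, 0 members rose and 0 fell. Of the short members, the median was 45.1 RPKM in sam1 culture 1 and 108 RPKM in sam1 culture 3, against 38.7 and 32.0 RPKM in the BY4741 cultures, so the sam1 cultures differed from each other by more than sam1 culture 1 differed from BY4741. The cultures of snR72, singled out after its values were seen, spread far apart: it had 1.76 and 39.7 RPKM in the sam1 cultures, against 1.62 and 1.56 RPKM in BY4741 (adjusted p = 0.218).

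snR87, a guide of the small subunit rRNA, had 16.3 and 53.9 RPKM in sam1, against 5.22 and 5.10 RPKM in BY4741, a log2 fold change of 2.34 ± 0.55 (limma adjusted p = 0.0462). Over all strains snR87 rested on a median of 22.5 implied reads per library, with 2 in the lowest, and its BY4741 values are low. snR39B had 81.2 and 215 RPKM in sam1, against 39.6 and 28.6 RPKM in BY4741 (1.94 ± 0.46, limma adjusted p = 0.0464). snR57 had 205 and 315 RPKM in sam1, against 68.8 and 76.0 RPKM in BY4741 (1.81 ± 0.31, limma adjusted p = 0.037). All 3 are ribose methylation guides, and their sam1 cultures spread widely. These cultures lay above both BY4741 cultures, as the rule for naming the RNAs required. BY4741 was low for them among the wild types. For snR87 the mean was 43.2 RPKM in the acs2-ts wild type, 50.8 RPKM in the pyk1 wild type and 35.1 RPKM in sam1. In the same order, snR39B had 146, 219 and 148 RPKM, and snR57 had 262, 221 and 260 RPKM. Differences between the wild types were not tested.

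In the other direction, U3 from snR17b had 1126 and 988 RPKM in sam1, against 2634 and 2801 RPKM in BY4741 (-1.33 ± 0.19, limma adjusted p = 0.0357). snR82 had 1673 and 1158 RPKM in sam1, against 3218 and 3256 RPKM in BY4741 (-1.20 ± 0.24, limma adjusted p = 0.0409). snR31, a pseudouridine guide of the small subunit, had 541 and 836 RPKM in sam1, against 1447 and 1373 RPKM in BY4741 (-1.03 ± 0.21, limma adjusted p = 0.0409). Both sam1 cultures lay below both BY4741 cultures in each, as the rule for naming them required. The means of the acs2-ts and pyk1 wild types were 3019 and 1549 RPKM for snR17b. They were 1680 and 1327 RPKM for snR82, and 785 and 481 RPKM for snR31. U14 (snR128, -0.86) and snR8 (-0.85) also fell. snR17a had 15930 and 14910 RPKM in sam1, against 20840 and 20890 RPKM in BY4741, which did not pass the test (adjusted p = 0.357), and snR45 missed it as well (-0.70, adjusted p = 0.0548).

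None of the 6 spliceosomal RNAs was called in sam1. LSR1 had 47920 and 49800 RPKM in sam1, against 27280 and 36900 RPKM in BY4741 (0.62 ± 0.44, adjusted p = 0.323), and snR14 had 0.72 ± 0.32. Of the host genes, RPS22B rose in sam1 (205 and 702 RPKM, against 45.0 and 51.4 RPKM in BY4741, limma adjusted p = 0.0409) while its snR44 was not called (0.31). Of the 41 mRNAs of the protein lists, 7 rose, among them NOP10 (0.79), the RNase III RNT1 (0.89), LSM2 (1.05) and LSM5 (1.47). NRD1, which ends snoRNA transcription, fell (-0.79). Of all 5988 mRNAs, 533 rose and 486 fell in sam1, and the lists were not tested against these. The log2 fold changes of these mRNAs stand on the same 4 cultures of sam1 and BY4741. Their calls also use the spread between the ser33 and shm2 cultures, which share the model.

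Second libraries made from the same RNA differed by length group too. Over the 12 cultures with 2 libraries, the median of the members of 130 to under 300 nt was higher in the second library in 11 cultures, with a median of 0.48 on the log2 scale and a highest value of 1.37 in BY4741 culture 2. The group of 300 nt or more stood at or below 0 in every culture, down to -0.40, and the mRNAs at -0.24 to -0.01. In BY4741 culture 2, 21 of 32 members of 130 to under 300 nt differed by more than 1 on the log2 scale between the 2 libraries of the same RNA. snR8 had 589 and 1862 RPKM in the first and second library of BY4741 culture 2 and 637 and 1432 RPKM in those of culture 3, while it had 384 and 814 RPKM in those of sam1 culture 1 and 401 and 759 RPKM in those of culture 3. Within the first libraries and within the second, both sam1 cultures lay below both BY4741 cultures for snR8. For snR31 the first libraries had 402 and 457 RPKM in sam1, against 815 and 803 RPKM in BY4741, and the second 679 and 1214 RPKM in sam1, against 2079 and 1943 RPKM in BY4741, with the same order. Both RNAs were called lower from the averages of these same libraries, so the order is no separate support for their falls. The share of all rows with this order was not counted. With the first libraries alone 0 members rose and 2 fell in sam1, and with the second alone 1 rose and 3 fell. The counts of all rows with either set of libraries are not given here.

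**Figure D4:**
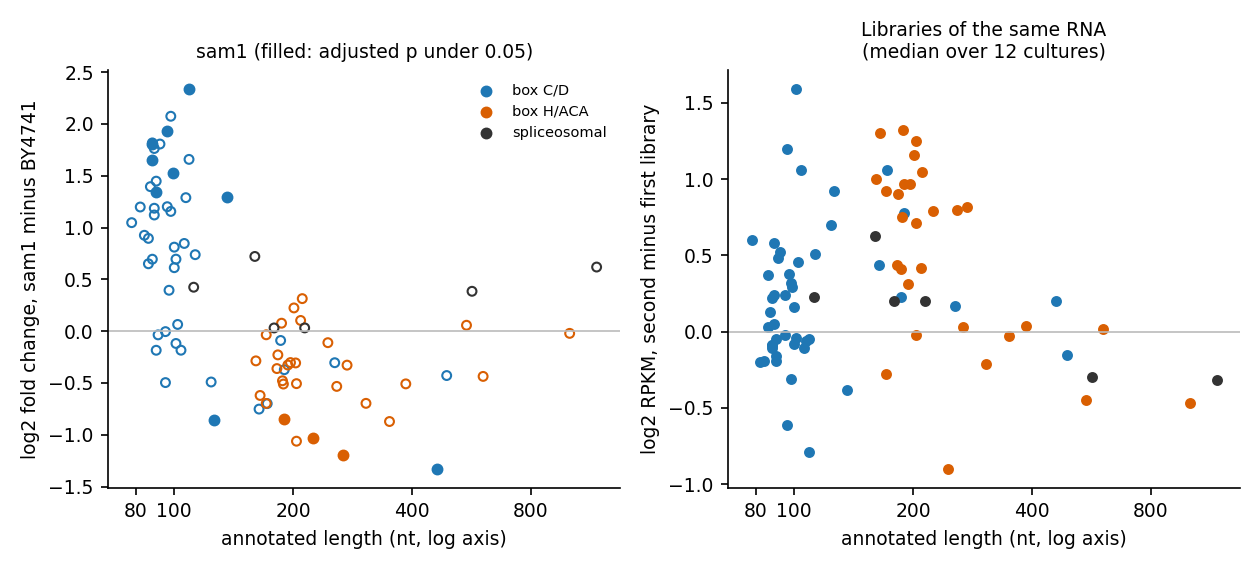
Left, log2 fold change in sam1 over BY4741 (y) against length in nt (x, log axis) for 82 genes, filled where the adjusted p was under 0.05. Right, log2 RPKM of the second minus the first library of the same RNA (y, median over 12 cultures). Left, members under 130 nt have a median of 0.99 and those of 130 to under 300 nt -0.32, and right those of 130 to under 300 nt lie mostly above 0.

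In ser33, shm2 and pyk1, no member was called. In ser33, limma gave 0 rises and 0 falls, and 0 of 82 members had an unadjusted p under 0.05, against 6.43% of all rows. All rows gave 0.0% rises and 0.014% falls in ser33. The median of the members was -0.02, with a range of -1.25 to 0.69. The lowest value was that of snR74, a member of the chromosome XIII cluster. It had 4.38 and 7.0 RPKM in ser33, against 14.0 and 13.9 RPKM in BY4741, and an adjusted p of 0.829 by limma. It had only 1 to 18 implied reads in each of the 4 ser33 libraries. Its culture values did not overlap, but the share of all rows without overlap was not counted in ser33. The smallest adjusted p of a member was 0.766.

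In shm2, all rows gave 0.0% rises and 0.014% falls, and 3 members had an unadjusted p under 0.05, against 6.81% of all rows. These were snR57 (165 and 109 RPKM in shm2, against 68.8 and 76.0 RPKM in BY4741), snR47 and snR80. Their adjusted p was 0.685 by limma. The members under 130 nt had a median of 0.16 and those of 300 nt or more -0.35.

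In pyk1, all rows gave 0.0% rises and 0.0% falls, and 6 members had an unadjusted p under 0.05, against 14.3% of all rows. All 6 were higher in pyk1: snR82, snR4, snR84, snR70, snR83 and snR8. snR82 had 2167 and 2347 RPKM in pyk1, against 1418 and 1237 RPKM in its wild type (0.77 ± 0.11), and snR4 had 1255 and 1311 RPKM in pyk1, against 948 and 902 RPKM in its wild type (0.47 ± 0.07). The adjusted p of both was 0.272 by limma. Neither pair of cultures overlapped, but the share of all rows without overlap was not counted in pyk1, so nothing was drawn from that. The members under 130 nt had a median of -0.15, and the 10 of 300 nt or more were all above 0, with a median of 0.35. Short members differed between the pyk1 cultures, with medians of 65.6 and 116 RPKM, against 100.2 and 104 RPKM in its wild type.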

How the data were processed

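RNA from 2 cultures of each of 8 strains was sequenced after ribosomal RNA depletion, as 2 technical libraries per culture (1 for pyk1 and its wild type). The authors deposited 1 table of RPKM values for 7125 rows and 28 libraries. The submitters' processing notes name CASAVA 1.8.2, TopHat2 2.0.13, edgeR and the sacCer3 build. The rule for counting overlapping features is not given in the sources used here. A further 32 columns without values were not used. RPKM is scaled to each library and was not rescaled, so RNA per cell and number of cells cannot be told apart. The depth was inferred from the steps between low RPKM values, and reads per gene follow from it.

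Values were analysed as log2(RPKM + 1), with technical libraries averaged on that scale. Fold changes therefore understate the change of low genes. Linear models with a trended prior (limma 3.58.1, R 4.3.3) were fitted over all rows with Benjamini-Hochberg adjustment, and a row was called at an adjusted p under 0.05. BY4741, sam1, ser33 and shm2 shared 1 model, and the other pairs had their own. Python 3.11.15, pandas 2.3.3 and matplotlib 3.10.9 were used for summaries. The code was tested on simulated data. With 2 cultures against 2, an exact two-sided permutation test cannot go below 0.333, so none was used for calls. The labels do not say whether cultures were grown separately. The p-values set a difference against the spread between these samples, moderated by a trend over all rows. For sam1, ser33 and shm2 that spread is shared by the strains of their model. The number of the second wild-type culture of acs2-ts differs between its title (2) and description (3), and the title was used.

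The members, the protein lists and the comparisons were chosen with earlier results of these data known. Named genes were the spliceosomal RNAs, the snoRNAs of rRNA processing and acetylation, members inside a host gene, the 3 highest and 3 lowest in level, and per comparison the 3 largest rises and falls among called members without overlap between cultures. Others are named after their values were seen. Classes, positions, roles and sequences come from the RefSeq annotation of R64, the same build as sacCer3, where all 82 members were matched. Alternatives were a pseudocount of 0.1, a minimum mean of 1 RPKM, the first or second technical library alone, scaling by the mRNA sum or the median of ratios, 2 strains per model, a replicate block and leaving out each culture.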

Additional observations from a re-analysis of the deposited data

How the results depend on the processing

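Scaling mattered most in acs2-ts. With median-of-ratios scaling 65 members rose and 2 fell. The medians became 1.38 for the members, 0.93 for box C/D, 1.51 for box H/ACA and -0.05 for mRNAs. The sign changed in 38 of 82 members, and the named genes among them with a call on either scale were snR14 (0.98), snR18 (1.25), snR38 (0.61), snR39 (0.62), snR39B (0.53), snR44 (1.32), snR57 (0.56), snR59 (0.67), snR6 (1.20) and snR78 (1.41). With the first technical library alone 6 members rose and the box C/D median was -0.37. Leaving out 1 culture gave fewer rises, and medians of -0.17 to 0.02 for members, -0.51 to -0.38 for box C/D and -1.48 to -1.29 for mRNAs. Without members inside or overlapping another gene the box C/D median was -0.39, and with a pseudocount of 0.1 the mRNA median was -1.50.

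In sam1, the rises numbered 0 with the first library, 1 with the second, 13 with a minimum mean of 1 RPKM, 1 with mRNA-sum scaling, 0 with 2 strains in the model and 0 to 22 without 1 culture. The falls numbered 2, 3 and 9 under the first 3 of these, 0 with 2 strains in the model and 0 to 3 without 1 culture. The cause of these changes was not tested. The second library alone, the crossed pairing and the scaling of the medians were chosen after seeing the data, and a culture left alone was assumed to vary like the other groups.

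Whether replicate numbers pair the samples cannot be told from 2 cultures per strain. The deviations of same-numbered cultures correlated at -0.17 for ser33 and BY4741 and at 0.12 for acs2-ts and its wild type. With a replicate block, 14 members rose and 30 fell in acs2-ts, and 0 rose and 0 fell in ser33, also 0 and 0 with crossed numbers. The counts of all rows with a block are not given here.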
